A study of Oryctolagus cuniculus with 17 samples.

Results

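Prostaglandins and thromboxane are lipid mediators that cells make from arachidonic acid, and 10 genes that make, break down or sense them were followed in the lung of preterm rabbit pups kept in high oxygen. They were 2 cyclooxygenases (PTGS1 and PTGS2), 4 terminal synthases (PTGES, PTGES2, PTGIS and TBXAS1), 1 enzyme of breakdown (HPGD) and 3 receptors (PTGER2, PTGER4 and PTGIR). The genes were chosen by name from the 13827 entries of the count table, with the entry of highest total kept for each symbol. All 10 were found, and all 10 passed the filter on low counts, which kept 13142 entries.

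New Zealand White pups were delivered by Caesarean section on day 28 of gestation (term is 31 days), so that every group was preterm, and all were fed milk replacer in incubators. The hyperoxia groups (HT3, HT5 and HT7) were kept in 95% oxygen and the normoxia groups (NT3, NT5 and NT7) in 21% oxygen until postnatal day 3, 5 or 7. Homogenate of the whole right lung was sequenced as stranded mRNA, from 2 pups in HT5 and 3 in every other group, and hyperoxia after preterm birth serves here as a model of bronchopulmonary dysplasia. The litter of each pup is not given, so that p-values measure the spread between these samples only.

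Phospholipases release arachidonic acid from membranes, and a cyclooxygenase converts it to prostaglandin H2. PTGS1 is the constitutive and PTGS2 the inducible cyclooxygenase. Terminal synthases then turn prostaglandin H2 into prostaglandin E2 (PTGES, PTGES2), prostacyclin (PTGIS) or thromboxane A2 (TBXAS1), which act on receptors at the cell surface. The lung is a main site where circulating prostaglandins are removed, by uptake into the cell and then oxidation by HPGD, the 15-hydroxyprostaglandin dehydrogenase. Prostacyclin relaxes lung vessels, while thromboxane constricts them and activates platelets.

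The samples held between 13123731 and 18111086 counts over loci. SFTPC, the surfactant protein of alveolar type 2 cells, had 4033 to 12324.1 counts scaled to a library of 1000000 counts (CPM) and AGER, a marker of alveolar type 1 cells, 669 to 4760.1 CPM, so lung markers were present in every sample. Below, a gene rose or fell where the adjusted p-value of the edgeR quasi-likelihood test, corrected over all genes tested, was under 0.05. A differentially expressed gene (DEG) met stricter limits, an adjusted p-value under 0.01 with a log2 fold change (log2FC) above 2 or below -2. CPM are compared between samples and not between genes, since gene lengths were not used.

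None of the 10 genes passed on day 3, where 1.03% of all genes tested did. An unadjusted p-value under 0.05 was found for 2 of the 10, beside 2013 of 13142 genes tested, and DESeq2 called 1 (TBXAS1). On day 5, 1 rose (PTGS2) and 1 fell (HPGD), against 31.3% of all genes called in either direction (15.9% higher and 15.4% lower). Both were DEGs, as were 1.58% of all genes, but neither was without HT5 replicate 2. On day 7, 3 rose (PTGS2, PTGES2 and PTGIR) and 2 fell (HPGD and PTGS1), so that 5 of 10 were called against 47.4% of all genes (23.7% higher and 23.7% lower), and 3 were called without HT7 replicate 1 or without HT7 replicate 3. PTGS2 and HPGD were again the 2 DEGs, and 4.59% of all genes were DEGs on that day. The hyperoxia samples all lay on 1 side of the normoxia samples for 3, 3 and 4 of the 10 genes on days 3, 5 and 7, beside 26.7%, 55.7% and 54.5% of all genes tested. The median log2FC of the 10 genes was -0.19, 0.09 and 0.39 on days 3, 5 and 7, beside 0.00, -0.02 and -0.01 over all genes tested.

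**Figure D1:**
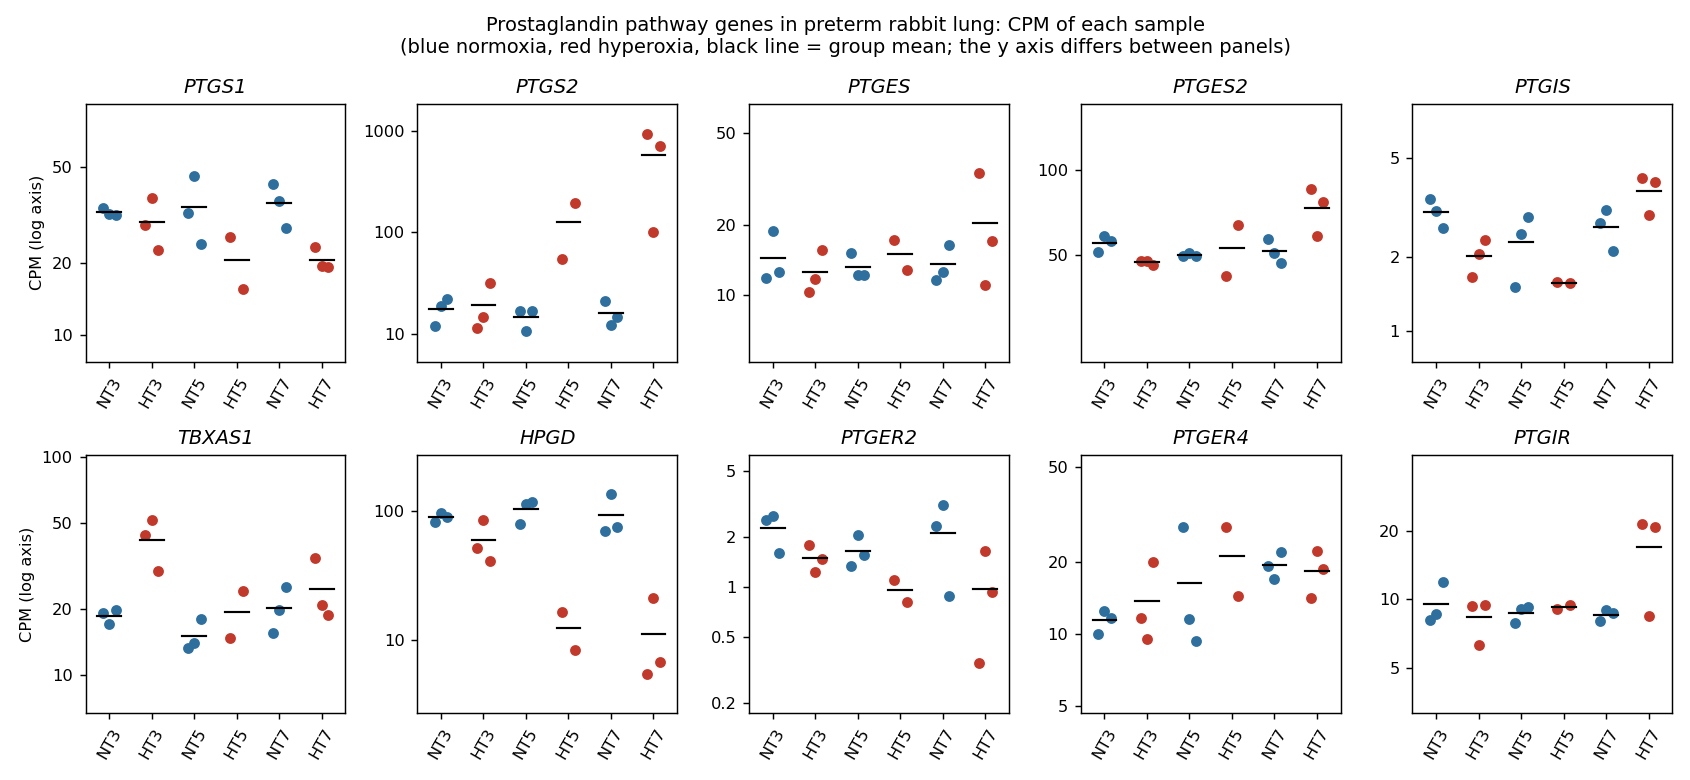
CPM (y axis, log scale, different in each panel) of the 10 genes in each lung sample by group (x axis), with normoxia in blue, hyperoxia in red and a black line at the group mean. PTGS2 reached 926 CPM in HT7 while no normoxia sample passed 21.8 CPM, and HPGD fell to 5.42 CPM in HT7 while no normoxia sample was under 69.9 CPM.

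PTGS2 had the largest rise of the 10 genes on days 5 and 7. The gene (ENSOCUG00000016771) lies on chromosome 16 of OryCun2.0 at 83706643-83713353, plus strand. Its level was 11.8, 18.6 and 21.8 CPM in NT3 and 11.3, 14.6 and 31.5 CPM in HT3, so that the groups overlapped on day 3. NT5 samples had 16.8, 10.6 and 16.7 CPM and the HT5 pair 54.7 and 195 CPM. NT7 samples had 20.9, 12.3 and 14.6 CPM, whereas HT7 samples had 926, 101 and 702 CPM. Every hyperoxia sample was thus above every normoxia sample on days 5 and 7, and HT7 replicate 2 stood far under the other two HT7 samples. In counts, HT7 replicate 2 had 1675 against 16056 and 13710 in the others, and normoxia samples had 167 to 383 on any day.

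The log2FC of PTGS2 was 0.14 ± 0.63 (SE; adjusted p = 0.947) on day 3. It was 3.08 ± 0.70 (adjusted p = 0.00478) on day 5 and 5.18 ± 0.73 (adjusted p = 6.12e-05) on day 7, a 36.2-fold rise by edgeR. The group mean went from 15.9 ± 4.45 CPM (SD, n = 3) in NT7 to 577 ± 427 CPM (SD, n = 3) in HT7. The day 7 rise was called in every fit that left out 1 sample, with a log2FC from 4.66 to 5.68. The day 5 rise was not called without HT5 replicate 2 (log2FC 1.87, adjusted p = 0.136; adjusted p from 0.002 to 0.136 over samples left out), and that fit rests on a lone HT5 sample assumed to vary like the other groups.

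PTGS1 (ENSOCUG00000002530, scaffold GL018699 at 4844439-4872392, minus strand) moved the other way. Its level was 42.8, 36.2 and 28.0 CPM in NT7 and 23.2, 19.4 and 19.3 CPM in HT7, with no overlap of the groups. It fell by 0.79 ± 0.25 on the log2 scale on day 7 (adjusted p = 0.0173). HT5 samples had 25.7 and 15.5 CPM beside 32.4, 46.1 and 24.0 CPM in NT5, a log2FC of -0.73 ± 0.28 that missed the threshold (adjusted p = 0.0622). On day 3 the log2FC was -0.13 ± 0.25 (adjusted p = 0.843), with 33.9, 32.1 and 31.6 CPM in NT3 and 28.9, 37.4 and 22.6 CPM in HT3. The day 7 call was lost without HT7 replicate 3 (adjusted p = 0.0607) and without NT7 replicate 1 (adjusted p = 0.0745), within a range of 0.0124 to 0.0745 over samples left out. On day 5, PTGS1 was called by DESeq2 (adjusted p = 0.0389) and by edgeR with the replicate number as a block (adjusted p = 0.0372), and adjusted p-values of the other settings ran up to 0.173. With 1 sample left out, its day 5 log2FC ran from -1.14 to -0.42.

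The ratio of PTGS2 counts to PTGS1 counts within a sample, given as a description, lay between 0.231 and 0.698 in all 9 normoxia samples. It was 0.391, 0.391 and 1.39 in HT3 and 2.13 and 12.5 in HT5. In HT7 it was 39.8, 5.22 and 36.5, with replicate 2 lowest. All 5 samples of HT5 and HT7 and 1 of 3 samples of HT3 lay above the highest normoxia sample. The ratio is compared between samples only, and its size does not say which of the 2 genes had more RNA, since gene lengths were not used.

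**Figure D2:**
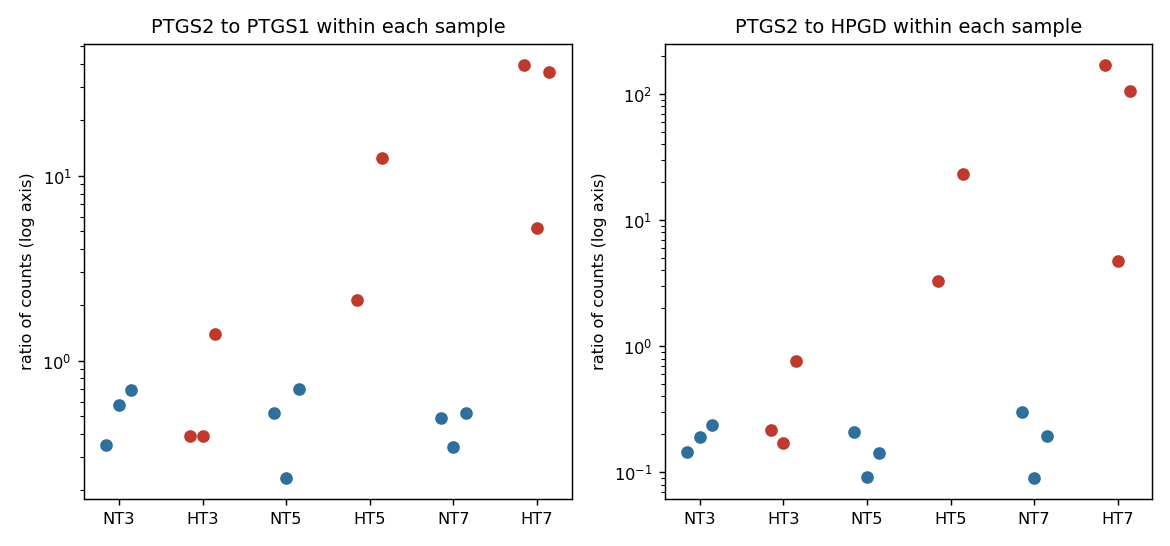
Ratio of counts within each lung sample (y axis, log scale) by group (x axis), with normoxia in blue and hyperoxia in red, for PTGS2 to PTGS1 (left) and PTGS2 to HPGD (right). All HT5 and HT7 samples lie above all normoxia samples in both panels, from 2.13 against at most 0.698 on the left and from 3.29 against at most 0.299 on the right.

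HPGD showed the largest fall of the 10 genes on days 5 and 7. It lies on chromosome 2 at 52453983-52494219, minus strand (ENSOCUG00000016289). On day 3, NT3 samples had 82.2, 96.7 and 91.0 CPM and HT3 samples 51.9, 85.3 and 41.3 CPM, so the ranges overlapped through HT3 replicate 2. NT5 samples had 80, 115 and 118 CPM, and HT5 samples 16.6 and 8.39 CPM. NT7 samples had 69.9, 137 and 75.3 CPM and HT7 samples 5.42, 21.4 and 6.71 CPM. Every hyperoxia sample of days 5 and 7 lay far under the lowest normoxia sample, and HT7 replicate 2, which had the least PTGS2 of its group, had the most HPGD.

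The log2FC of HPGD was -0.60 ± 0.43 on day 3 (adjusted p = 0.536), -3.07 ± 0.55 on day 5 (adjusted p = 0.00117) and -3.08 ± 0.47 on day 7 (adjusted p = 0.000113), or 8.46-fold lower on day 7. Means were 94.1 ± 37.5 CPM in NT7 and 11.2 ± 8.88 CPM in HT7 (SD, n = 3 each). The fall was called in every fit that left out 1 sample, with a log2FC between -3.63 and -2.66 on day 5 and between -3.94 and -2.70 on day 7. In these homogenates, fewer cells of a type and less RNA per cell cannot be told apart.

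**Figure D3:**
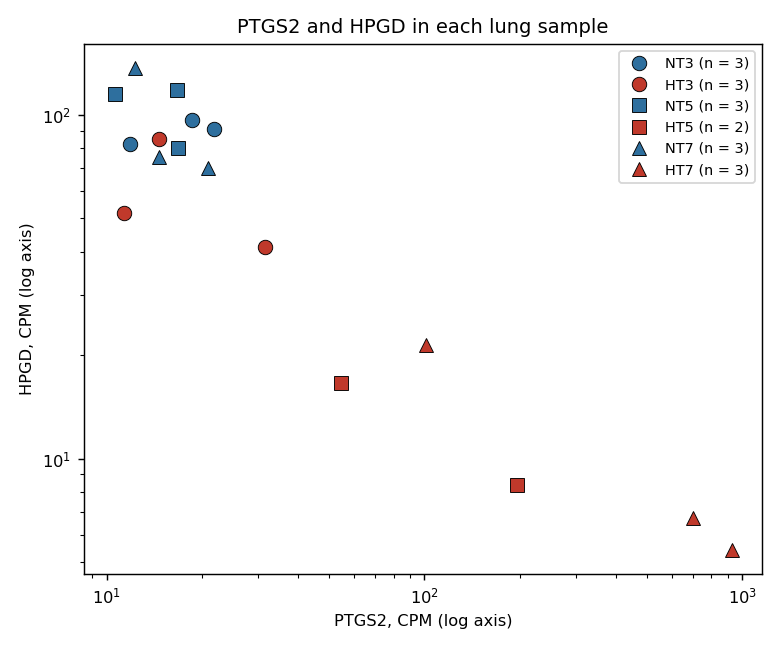
HPGD CPM (y axis, log scale) against PTGS2 CPM (x axis, log scale) in each of the 17 lung samples, with normoxia in blue, hyperoxia in red, and circles, squares and triangles for days 3, 5 and 7. The 9 normoxia samples lie together at upper left, and HT7 replicates 1 and 3 lie at lower right, with 926 and 702 CPM of PTGS2 beside 5.42 and 6.71 CPM of HPGD.

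The ratio of PTGS2 to HPGD counts joined both changes in 1 value per sample. It lay between 0.0899 and 0.299 in the 9 normoxia samples and was 0.218, 0.171 and 0.761 in HT3. It reached 3.29 and 23.2 in HT5 and 171, 4.73 and 105 in HT7. Within each hyperoxia group the sample with the most PTGS2 had the least HPGD, which is a description of 3, 2 and 3 samples.

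Of the terminal synthases, PTGES2, a membrane-associated prostaglandin E synthase, rose on day 7. Its entry (ENSOCUG00000026400, scaffold GL018847 at 466394-585111, plus strand) shares its locus and its counts with FAM102A, so the 2 genes cannot be separated. The locus had 56.9, 51.1 and 47.0 CPM in NT7 and 85.3, 58.3 and 77.1 CPM in HT7, with no overlap. The log2FC was 0.51 ± 0.15 (adjusted p = 0.0112), and the call was lost without HT7 replicate 1 (adjusted p = 0.0606, the highest of a range from 0.00155 over samples left out). On day 3 the order was the other way, with 47.7, 47.7 and 46.3 CPM in HT3 under 51.4, 58.5 and 56.3 CPM in NT3, but the log2FC of -0.23 did not pass (adjusted p = 0.488). HT5 samples had 42.3 and 64.0 CPM on either side of the NT5 values of 49.6, 51.1 and 49.6 CPM.

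PTGES, the inducible microsomal prostaglandin E synthase that commonly works with PTGS2, did not pass on any day. It lies on scaffold GL018933 at 351679-362196, plus strand (ENSOCUG00000023769). NT7 samples had 11.6, 12.6 and 16.4 CPM and HT7 samples 33.4, 11 and 17.1 CPM, so that replicate 1 stood out and replicate 2 was under the lowest NT7 sample. The day 7 log2FC was 0.59 ± 0.32 (adjusted p = 0.146). It was 0.90 without HT7 replicate 2 (adjusted p = 0.0182) and 0.05 at the lowest with another sample left out, where the adjusted p-value was up to 0.901. HT3 samples had 10.3 to 15.6 CPM beside 11.8 to 18.8 CPM in NT3, and HT5 samples 12.8 to 17.2 CPM beside 12.2 to 15.1 CPM in NT5.

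PTGIS, the prostacyclin synthase of vessel walls, had low counts, with 1.51 to 4.15 CPM over all samples (ENSOCUG00000000094, scaffold GL018940 at 335724-364939, plus strand). HT3 samples had 1.66, 2.05 and 2.33 CPM, all under the 3.42, 3.07 and 2.62 CPM of NT3, at a log2FC of -0.59 ± 0.27 that did not pass (adjusted p = 0.32, unadjusted p = 0.0478 by edgeR). On day 7 the order was 4.15, 2.96 and 4.0 CPM in HT7 beside 2.73, 3.10 and 2.12 CPM in NT7, at a log2FC of 0.48 (adjusted p = 0.157). On day 5 the log2FC was -0.55 (adjusted p = 0.204), with 1.58 and 1.57 CPM in HT5 and 1.51 to 2.89 CPM in NT5.

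TBXAS1, the thromboxane synthase of platelets and macrophages, was the gene with the largest difference on day 3. It lies on scaffold GL018774 at 257769-495477, minus strand (ENSOCUG00000016140). Its level was 44.1, 51.2 and 30.1 CPM in HT3 and 19.2, 17 and 19.9 CPM in NT3, with no overlap of the groups. The log2FC of 1.16 ± 0.27 was just short of the threshold in the edgeR fit (adjusted p = 0.0518), while DESeq2 called it (adjusted p = 0.00229). Adjusted p-values of the settings that kept all samples of the day ran from 0.00229 to 0.119, and those with 1 sample left out from 0.0372 to 0.205. On day 5, HT5 samples had 14.8 and 24.2 CPM beside 13.3, 14 and 18.0 CPM in NT5 (log2FC 0.37, adjusted p = 0.359). On day 7, HT7 samples had 34.4, 21.0 and 18.9 CPM beside 15.5, 19.8 and 25.3 CPM in NT7 (log2FC 0.29, adjusted p = 0.381).

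The levels of several marker lists on day 3 are given beside those of TBXAS1. The summed level of the 7 neutrophil markers in the table was 927 to 1446.2 CPM in HT3 and 268 to 644 CPM in NT3, with 6 of 7 above 0 in log2FC and none called by edgeR. Of these 7, 6 had an unadjusted p-value under 0.05, beside 2013 of 13142 genes tested. The 10 macrophage markers summed to 1087 to 1646.7 CPM in HT3 and 1040 to 1155 CPM in NT3. The 6 platelet markers summed to 40.6 to 53.4 CPM in HT3 and 46.6 to 65.3 CPM in NT3, and the platelet receptors GP9 and GP1BA had at most 9 and 8 counts in any sample. The 7 alveolar type 2 markers summed to 24794 to 28056.8 CPM in HT3 and 17459.7 to 20388.4 CPM in NT3, with none called by edgeR (2 had an unadjusted p-value under 0.05). Sums were lower in HT3 for the 6 fibroblast markers, at 6996.4 to 8487.7 CPM beside 9417.2 to 11630.7 CPM, and for the 6 smooth muscle markers, at 839 to 953 CPM beside 1056.7 to 1250.8 CPM, although DES (log2FC 0.69, adjusted p = 0.173), DCN (0.06) and LUM (0.19) of these lists were above 0. Endothelial sums overlapped, at 2628 to 3087.7 CPM in HT3 and 3064.6 to 3406.5 CPM in NT3. The smooth muscle gene SMTN (log2FC -0.76, adjusted p = 0.0357) and the endothelial gene TIE1 (-0.87, adjusted p = 0.00316) fell on day 3, while the endothelial genes VWF (1.10, adjusted p = 0.056) and PECAM1 (0.32, adjusted p = 0.526) were above 0. The part of these cells in the TBXAS1 values was not tested.

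Of the receptors, PTGIR, the receptor for prostacyclin, rose on day 7. It lies on scaffold GL018835 at 100129-102523, minus strand (ENSOCUG00000026915). HT7 samples had 21.5, 8.41 and 20.8 CPM and NT7 samples 8, 8.97 and 8.66 CPM, so that replicates 1 and 3 were over the normoxia range and replicate 2 was within it. The log2FC was 0.98 ± 0.29 (adjusted p = 0.0106). The call was lost without HT7 replicate 1 (adjusted p = 0.0554) or HT7 replicate 3 (adjusted p = 0.0501), and over samples left out the adjusted p-value ran from 0.000118 to 0.0554. On days 3 and 5 the log2FC was -0.18 (adjusted p = 0.811) and 0.09 (adjusted p = 0.858), and all samples of those days had 6.31 to 11.9 CPM.

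PTGER2 and PTGER4, which bind prostaglandin E2 and raise cyclic AMP, did not pass on any day. PTGER2 had the lowest counts of the 10 genes, 6 to 53 per sample (ENSOCUG00000012608, chromosome 17 at 71193295-71210634, plus strand). It had 0.346, 1.63 and 0.922 CPM in HT7 and 2.32, 3.10 and 0.872 CPM in NT7, so the groups overlapped. The log2FC was -1.11 ± 0.50 (adjusted p = 0.0795), and it was called without HT7 replicate 2 (log2FC -1.69, adjusted p = 0.0178) or without NT7 replicate 3 (adjusted p = 0.0218), within a range up to 0.312. On days 3 and 5 the log2FC was -0.61 (adjusted p = 0.587) and -0.78 (adjusted p = 0.315), and both HT5 samples (1.10 and 0.812 CPM) lay under the lowest NT5 sample (1.33 CPM).

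PTGER4 lies on chromosome 11 at 61556448-61569098, plus strand (ENSOCUG00000000895). It had 14.1, 22.3 and 18.7 CPM in HT7 and 19.2, 17 and 22 CPM in NT7 (log2FC -0.08, adjusted p = 0.875). The log2FC was 0.26 on day 3 (adjusted p = 0.794) and 0.38 on day 5 (adjusted p = 0.512). NT5 replicate 1 had 28.1 CPM beside 11.5 and 9.30 CPM in its group, and without it the day 5 log2FC was 1.03 (adjusted p = 0.0413), the lowest of a range up to 0.887.

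**Figure D4:**
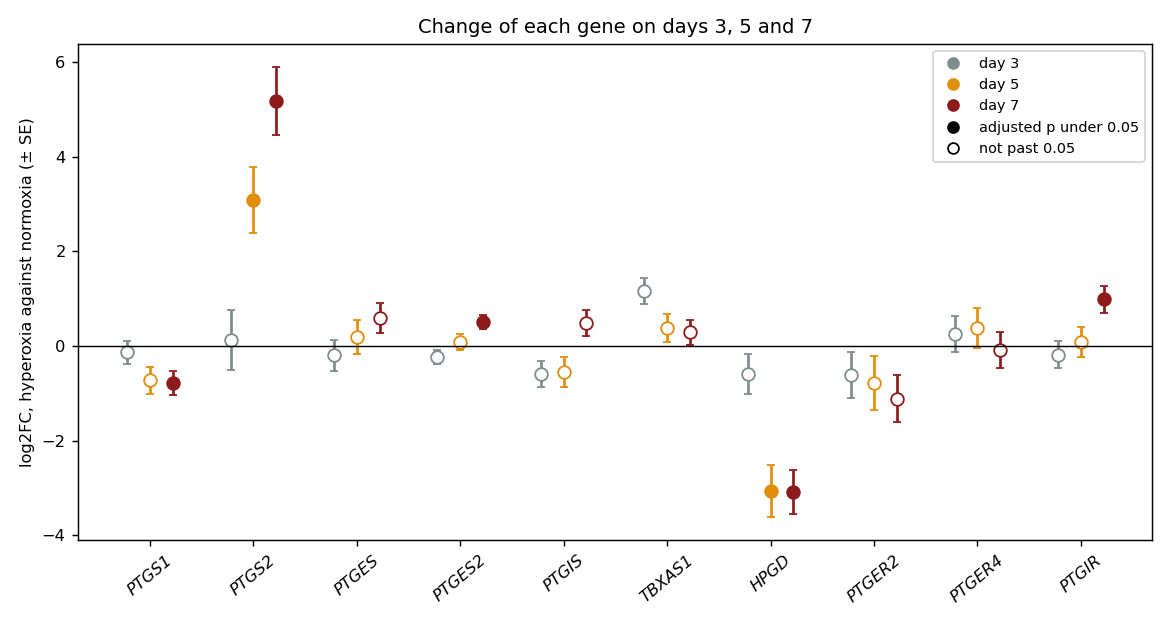
Log2FC of hyperoxia against normoxia (y axis, bars are ± SE) of the 10 genes (x axis) on days 3, 5 and 7 in grey, orange and dark red, with filled points where the adjusted p-value was under 0.05. PTGS2 stands at 5.18 and HPGD at -3.08 on day 7, and no point of day 3 is filled.

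The effect of hyperoxia differed between days 7 and 3 for 3 of the 10 genes, against 20.5% of all genes tested. The log2FC of day 7 minus that of day 3 was 5.04 ± 0.93 for PTGS2 (adjusted p = 0.00316), -2.48 ± 0.62 for HPGD (adjusted p = 0.0129) and 0.74 ± 0.21 for PTGES2 (adjusted p = 0.0245). It was 1.17 for PTGIR (adjusted p = 0.0531), 1.07 for PTGIS (adjusted p = 0.0611) and -0.87 for TBXAS1 (adjusted p = 0.113). DESeq2 called 4, with PTGIR as the fourth (adjusted p = 0.0291, over a range of 0.0291 to 0.0932 among the settings that kept all samples of these days). Without HT7 replicate 2, 6 genes differed, PTGIR, PTGIS and PTGES among them. The shares of all genes called by DESeq2 and in this fit are not given, so these counts cannot be set beside the 20.5%. Between days 5 and 3 none was called by edgeR, where 1.46% of all genes were, and 1 by DESeq2 (HPGD). There, 2 of the 10 had an unadjusted p-value under 0.05, beside 2664 of 13142 genes tested. Between days 7 and 5 none was called by edgeR or DESeq2, and edgeR called 0% of all genes. An unadjusted p-value under 0.05 was found for 2 of the 10, beside 1125 of 13142 genes tested.

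Within hyperoxia, 6 of the 10 genes differed between days 7 and 3, against 44.3% of all genes. PTGS2 (log2FC 4.91), PTGIR (1.01), PTGIS (0.88) and PTGES2 (0.64) rose and HPGD (-2.42) and TBXAS1 (-0.75) fell, with adjusted p-values from 0.000121 to 0.0304. In the 6 fits without 1 of these samples, PTGS2, HPGD and PTGES2 were called each time, while PTGIR missed in 1 (without HT7 replicate 1), PTGIS in 3 and TBXAS1 in 4. From day 3 to day 5 in hyperoxia PTGS2 rose (log2FC 2.71, adjusted p = 0.0133) and HPGD (-2.26, adjusted p = 0.00899) and TBXAS1 (-1.10, adjusted p = 0.0198) fell, against 22.8% of all genes called. Without HT5 replicate 2, none of these 3 calls was made by edgeR, and without HT3 replicate 2 HPGD alone was called. These comparisons share HT3 samples with those of day 3. Within normoxia, none of the 10 genes was called from day 3 to day 5 or day 7 by edgeR or DESeq2, and edgeR called 0% of all genes there. None was at an unadjusted p-value under 0.05 either, beside 741 (day 5) and 824 (day 7) of 13142 genes tested.

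The other genes of prostanoid metabolism were taken from a list of 26, of which 19 were in the table and tested, and the remaining genes were not analysed here. On day 7, 3 rose and 9 fell, against 23.7% of all genes called higher and 23.7% lower, with a median log2FC of -0.63 beside -0.01 over all genes. On day 5, 3 rose and 3 fell, against 15.9% higher and 15.4% lower over all genes, and without HT5 replicate 2 none was called by edgeR. On day 3 none was called by edgeR and 1 by DESeq2 (CBR3), with 1 at an unadjusted p-value under 0.05, beside 2013 of 13142 genes tested.

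PLA2G4A, the cytosolic phospholipase that releases arachidonic acid, rose on day 7 by a log2FC of 1.27 ± 0.26 (adjusted p = 0.00122). It had 93.3, 108 and 133 CPM in HT7 and 31.1, 44.5 and 63.3 CPM in NT7, in ascending order. It is also a neighbour of PTGS2, on chromosome 16 at 83421230-83552033, minus strand. PLA2G4B (log2FC 0.41) and PTGES3 (0.39), a cytosolic prostaglandin E synthase with 2 entries in the table, rose as well, with adjusted p-values of 0.00832 and 0.00755.

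Among the receptors that fell on day 7 was PTGER3, a receptor for prostaglandin E2 that lowers cyclic AMP. It had 7.66 to 9.17 CPM in NT7 and 2.19 to 3.33 CPM in HT7 (log2FC -1.59 ± 0.23, adjusted p = 8.76e-05). PTGFR, the receptor for prostaglandin F2 alpha, fell by 2.07 on the log2 scale (adjusted p = 0.0116), from 13 to 29 counts in NT7 to 5 to 8 counts in HT7. PTGDR2, a receptor for prostaglandin D2, was a DEG on few counts, 9 to 13 in NT7 and 0 to 4 in HT7 (adjusted p = 0.00811). The secreted and cytosolic phospholipases PLA2G1B (log2FC -1.83), PLA2G5 (-2.13) and PLA2G4C (-2.21) fell too, the last a DEG, and PLA2G5 and PLA2G4C had 3 to 5 counts in each HT7 sample.

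SLCO2A1, the transporter that brings prostaglandins into the cell where HPGD oxidizes them, fell on days 5 and 7. It is outside the rule for named genes and was chosen after its values were seen. It had 687, 848 and 1094.6 CPM in NT7 and 265, 316 and 352 CPM in HT7, in ascending order, a log2FC of -1.50 ± 0.20 (adjusted p = 4.14e-05). On day 5 the range was 570 to 731 CPM in NT5 and 283 to 416 CPM in HT5 (log2FC -0.89). The other 2 genes that fell on day 7, likewise outside the rule, were PLA2G6 (-1.02) and PTGR2 (-0.63), a reductase of prostaglandin breakdown.

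**Figure D5:**
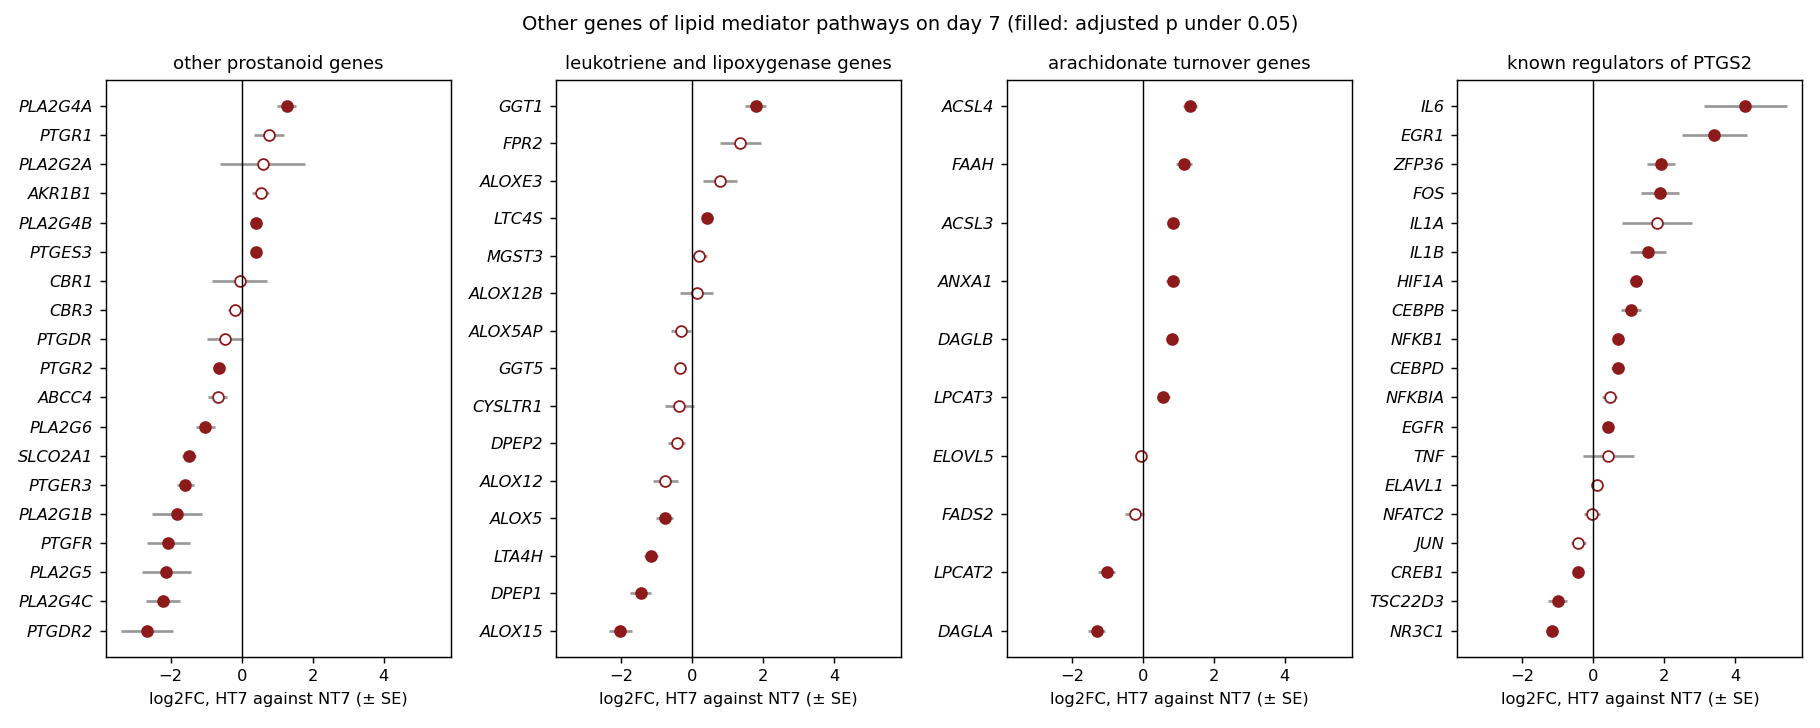
Log2FC of HT7 against NT7 (x axis, bars are ± SE) of the other genes of 4 lists (y axis), filled where the adjusted p-value was under 0.05. Among other prostanoid genes 3 points are filled to the right and 9 to the left, while among regulators of PTGS2 10 are filled to the right and 3 to the left.

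Leukotrienes and lipoxygenase products are made from the same arachidonic acid, and 15 of 20 listed genes were tested. On day 7, 2 rose and 4 fell (median log2FC -0.34), so that 6 of 15 were called against 47.4% of all genes. GGT1, a gamma-glutamyltransferase that processes leukotriene C4, rose on all 3 days, by a log2FC of 1.68 (adjusted p = 0.0146), 1.31 (0.00767) and 1.79 (0.000217) in order of days. LTC4S, the leukotriene C4 synthase, rose on day 7 (0.42). ALOX15, the 15-lipoxygenase, was a DEG, with 170 to 279 CPM in NT7 and 52.9 to 67.9 CPM in HT7 (log2FC -2.03 ± 0.32, adjusted p = 0.000134). DPEP1 (-1.45), LTA4H (-1.15) and ALOX5 (-0.78), the last the enzyme that starts leukotriene synthesis, fell. On day 5, 1 rose and 4 fell, against 31.3% of all genes called, and only GGT1 was called without HT5 replicate 2.

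Of 10 tested genes of arachidonic acid turnover, a list that also holds makers of polyunsaturated fatty acids (FADS2 and ELOVL5) and ANXA1, an inhibitor of phospholipase A2, 6 rose and 2 fell on day 7 (median log2FC 0.70), against 23.7% of all genes higher and 23.7% lower. ACSL4, the ligase that activates arachidonic acid, had 117 to 156 CPM in NT7 and 236 to 402 CPM in HT7 (log2FC 1.34 ± 0.20, adjusted p = 0.000103). FAAH (1.17), ACSL3 (0.85), ANXA1 (0.85), DAGLB (0.82) and LPCAT3 (0.58) also rose. DAGLA (-1.31) and LPCAT2 (-1.02) fell. On day 5, 3 rose and 2 fell, against 31.3% of all genes called, with 2 calls without HT5 replicate 2.

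Of 19 tested genes listed as regulators of PTGS2 or of its induction, 10 rose and 3 fell on day 7 (median log2FC 0.68), against 23.7% of all genes higher and 23.7% lower. The cytokine gene IL6 was a DEG, with 0 to 21 counts in NT7 and 47 to 667 in HT7 (log2FC 4.28 ± 1.17, adjusted p = 0.00751). EGR1, an immediate early transcription factor, had 18.7 to 33.7 CPM in NT7 and 104 to 511 CPM in HT7 and was the second DEG of the list on that day (log2FC 3.41 ± 0.91, adjusted p = 0.00647). IL1B, which induces PTGS2 in many cells, was a DEG on day 5 (log2FC 2.37, adjusted p = 0.00607) and rose by 1.53 on day 7. ZFP36 (1.91), whose protein promotes decay of PTGS2 mRNA, FOS (1.89) and HIF1A (1.21) rose on day 7. NR3C1, the glucocorticoid receptor that restrains PTGS2, fell from 248 to 256 CPM in NT7 to 83.7 to 134 CPM in HT7 (log2FC -1.18 ± 0.13, adjusted p = 1.19e-05), and its target TSC22D3 (-1.01) and CREB1 (-0.44) fell as well. On day 5, 5 rose and 3 fell, against 31.3% of all genes called, with 3 calls without HT5 replicate 2.

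Marker genes of several cell types differed on day 7, when PTGS2, PTGES2, PTGIR, HPGD and PTGS1 were called. Over all genes tested, 23.7% rose and 23.7% fell on that day. The 8 endothelial markers summed to 2585 to 3114.2 CPM in NT7 and 1062.9 to 1442.2 CPM in HT7, and 6 of 8 fell. TEK (log2FC -2.79) and KDR (-2.60) were among these, while PECAM1 had a log2FC of -0.05 (adjusted p = 0.87) and VWF one of 0.29 (adjusted p = 0.367). The 5 alveolar type 1 markers summed to 6464.3 to 7244.8 CPM in NT7 and 1936.9 to 2539.2 CPM in HT7, and 3 of 5 fell. AGER and CAV1, with means of 4109.6 and 1840.7 CPM in NT7, made up most of the sum and fell, as did RTKN2. HOPX (log2FC 0.35, adjusted p = 0.181) and PDPN (0.15, adjusted p = 0.409) were above 0. The 10 macrophage markers summed to 1336.4 to 1607.6 CPM in NT7 and 2033.1 to 2561.2 CPM in HT7, but without CD68 (log2FC 1.21) the other 9 summed to 665 to 840 CPM and 491 to 854 CPM. Of the 10, CD68, CD163 (1.49) and MSR1 (1.71) rose, MARCO (-2.19) and LYZ (-0.91) fell, and the median log2FC was -0.21. The 6 smooth muscle markers summed to 832 to 1051.6 CPM in NT7 and 508 to 753 CPM in HT7, where SMTN (log2FC -1.50), MYH11 (-0.9998) and LMOD1 (-0.99) fell, DES (0.75) rose and ACTA2 had a log2FC of -0.01 (adjusted p = 0.956). Alveolar type 2 sums overlapped, at 17292.8 to 23319.5 CPM in NT7 and 13537 to 29590.9 CPM in HT7, while SFTPA1 rose (log2FC 1.17) and NAPSA (-1.49) and SLC34A2 (-1.51) fell. Of the 6 fibroblast markers, LUM (1.25) rose and COL1A2 (-0.45) and TCF21 (-1.56) fell. The 7 neutrophil markers summed to 812 to 986 CPM in NT7 and 879 to 2818.4 CPM in HT7, where CXCR2 (0.9995) rose and MPO (-2.19) fell. The 3 mast cell markers summed to 40.1 to 86.6 CPM in NT7 and 14.5 to 18.2 CPM in HT7, where KIT was a DEG (-2.65) while MS4A2 (0.15, adjusted p = 0.834) and HDC (0.28, adjusted p = 0.609) were not called. Of the 4 platelet markers tested, TUBB1 (-1.85) and GP6 (-1.88, at most 15 counts in any sample) fell, ITGB3 (0.53) and ITGA2B (0.02) were not called, and the sums of 6 overlapped (48.3 to 62.5 CPM in HT7 and 43.7 to 55.1 CPM in NT7). Of the airway markers SCGB3A2 (1.497) rose and TPPP3 (-1.64) fell.

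Of all genes tested, 55.7% had no overlap of the groups on day 5 in either direction, 15.9% rose and 15.4% fell. On that day, when PTGS2 and HPGD were called, marker sums were lower in HT5, without overlap, for 6 lists. They were 1529.2 to 1647.8 CPM in HT5 and 2547 to 3102.1 CPM in NT5 for endothelial markers, of which 5 of 8 fell and VWF rose (log2FC 1.14). They were 2219 to 3795.4 CPM and 5595.4 to 6813.8 CPM for alveolar type 1 markers, of which 3 of 5 fell. HOPX (log2FC -0.01) and PDPN (0.16) of that list were not called. Smooth muscle markers summed to 501 to 542 CPM in HT5 and 896 to 1106.4 CPM in NT5, with 4 of 6 that fell and DES that rose (0.80). Fibroblast markers summed to 5603 to 7108.4 CPM and 8035 to 8976 CPM, with 3 of 6 that fell. Above 0 were LUM (log2FC 0.70, adjusted p = 0.116), higher in both HT5 samples than in any NT5 sample, and DCN (0.24, adjusted p = 0.683). Mast cell markers summed to 11.5 to 25 CPM and 54.2 to 88.8 CPM, with KIT a DEG (-2.37) and MS4A2 (0.15) and HDC (-0.14) not called. Airway markers, with 156 to 204 CPM in HT5 and 225 to 272 CPM in NT5, were the sixth list, and TPPP3 fell (-1.002) while SCGB3A2 (0.27) and FOXJ1 (-0.24) were not called. CXCR2 (1.18) and CSF3R (1.05) among neutrophil markers and CD68 (0.86) and CD163 (2.12) among macrophage markers rose, while the sums of both lists overlapped. The part of these cell types in the values of the 10 genes was not tested.

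The genes whose pattern was most like that of 3 of the 10 were ranked by Pearson's r of log2 CPM over the 17 samples, as a description of samples that share their group differences. For PTGS2 they included EIF5A (0.984), LIF (0.980), MYBBP1A (0.976) and VWA7 (0.975), the last at a locus shared by 2 genes. For HPGD they were PRR5L (0.982), CHST7 (0.982), ANKS1A (0.981), PDCD4 (0.980) and DDX17 (0.979). For PTGIS, whose counts were low, r was lower, from 0.846 for C11orf68 to 0.791 for CADM3, with RELL2, TTLL11 and TP53I13 between.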

How the data were processed

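RNA-seq of 17 right lung samples was used. The authors deposited raw counts per locus without normalization. Per the labels, reads were checked with FastQC and mapped with STAR 2.7.10a to OryCun2.0; the counting program is not given in the sources used here. A locus with several genes appears once per gene with the same counts, and 44 entries without gene name were kept.

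Groups came from the labels. Counts were tested with edgeR 4.0.16 in R 4.3.3 (filterByExpr, TMM, quasi-likelihood fit of 6 group means to all 17 samples, prior count 0.125, Benjamini-Hochberg over 13142 entries; 685 entries were not tested). CPM used TMM factors and totals of all tested entries. DESeq2 1.42.0 was an alternative. Scripts were tested on simulated data. Results were tabulated in pandas 2.3.3 and plotted in matplotlib 3.10.9.

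The 10 genes, lists and tests were chosen with earlier results of these data known. All 10 genes are named; from other lists, up to 6 largest rises and 6 largest falls called on day 7 and every DEG; the 5 genes most like each of PTGS2, PTGIS and HPGD (1 of them is not reported here); and markers beside a result. Alternatives covered the tool, normalization, filter, prior count, entries per locus, samples fitted, replicate block and each sample left out.

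Whether equal replicate numbers pair samples was checked with correlations of deviations from group means: 0.166, 0.131 and 0.199 on day 3, 0.264 and 0.141 on day 5, and 0.174, 0.109 and 0.0695 on day 7. The rule used (at least 3 pairs, each over 0.1) was met on day 3 only, and no source says what the numbers stand for. Day 5 could not meet it, since HT5 has 2 samples. Samples of unlike number were not compared, so the rule does not settle whether samples were paired on any day.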

Additional observations from a re-analysis of the deposited data

Results flagged for a closer look

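The effect of hyperoxia differed between days 3 and 7 in the test of the difference itself for 3 genes. The log2FC of PTGS2 on day 7 was 5.04 above that on day 3, and it was called in each fit that left out 1 sample (adjusted p up to 0.0117). The log2FC of HPGD differed by -2.48 and was called in each such fit too (adjusted p up to 0.0398). PTGES2, at a locus shared with FAM102A, differed by 0.74, and its HT3 samples were all under and its HT7 samples all over the normoxia samples of the same day. That call was lost in 6 of the fits that left out 1 sample, where the adjusted p-value was 0.052 to 0.0642 (range over all such fits 0.0042 to 0.0642).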

How the results depend on the processing

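Of the values of single genes, 314 of the alternatives that kept all samples of the groups compared left direction and side of the threshold as they were and 6 brought a gene past it. With 1 sample left out, 253 stayed, 11 passed, 12 no longer passed and 14 turned in sign, all of the last for values not called before. The cause of these moves was not tested. The number of the 10 genes called on day 3 (0) was 1 (TBXAS1) with DESeq2, with the filter of 1 CPM in 3 samples and with samples of the day only, and 0 to 1 with 1 sample left out. Other prostanoid genes called on day 3 (0) were 1 with DESeq2. The 2 DEGs of day 5 were 0 with samples of the day only and 0 to 2 with 1 sample left out, and other prostanoid genes called on that day (6) were 2 and 0 to 9. The genes called on day 5 (2) were 1 to 3 and those of day 7 (5) were 3 to 7 with 1 sample left out, the 3 without HT7 replicate 1 or 3. The difference between days 7 and 3 was called for 2 to 6 genes (6 without HT7 replicate 2), and the shares of all genes called in those fits are not given. That between days 5 and 3 (0) was called for 1 (HPGD) with DESeq2 and with samples of the days only, and for 0 to 2 with 1 sample left out. Changes from HT3 to HT5 (3) were 0 to 3. This and the fits of further lists without HT5 or HT7 replicate 2 were chosen after seeing the data: on day 5, 1 of 5 leukotriene, 2 of 5 arachidonate and 3 of 8 regulator calls were made.

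Values that turned in sign with 1 sample left out were those of PTGS1 on day 3 (-0.34 to 0.028), PTGS2 on day 3 (-0.42 to 0.40), PTGES on days 3 (-0.39 to 0.0444) and 5 (-0.0381 to 0.37), PTGES2 on day 5 (-0.26 to 0.35), TBXAS1 on days 5 (-0.0471 to 0.68) and 7 (-0.0181 to 0.49), PTGER4 on days 3 (-0.11 to 0.47), 5 (-0.18 to 1.03) and 7 (-0.23 to 0.0794) and in its difference of days 7 and 3 (-0.55 to 0.0303), and PTGIR on day 3 (-0.29 to 0.0085).

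With the replicate number as a block within day, no call of day 3 changed. On days 5 and 7 the rule for pairing was not met, which does not show that the samples were unpaired. With the block, 1 gene (HPGD) was a DEG on day 5 in place of 2. PTGS1 was called on day 5 (adjusted p = 0.0372, range over settings 0.0372 to 0.173). The 10 genes had 3 calls on day 5 and 5 on day 7. The comparisons between days of 1 condition were not run with the block, which lies within days. PTGER2 had the lowest counts of the 10 genes, 6 to 53 per sample, and whether depth limited its test was not examined.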
